A study of Mus musculus with 9 samples.

Results

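The genes followed here across the embryonic mouse skull are 9 genes that endothelial cells use and Vegfa, the gene of the growth factor that those cells respond to. They were chosen by name, as Pecam1, Cdh5, Kdr, Flt1, Tek, Tie1, Emcn, Cldn5, Eng and Vegfa, and make up 10 of the 43548 gene identifiers in the expression table. All 10 were above 0 in every library and all 10 passed the filter on low values. RNA was sequenced from E14.5 embryos of mixed strain, in 3 groups of 3 libraries, and each library pooled RNA from 3 tissue samples.

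The MCAGF8 cranial vault came from embryos that carry the Msx2-Cre transgene and the CAGF8 allele. This allele puts Fgf8b behind a Lox-Stop-Lox cassette and a CAG promoter at the Rosa26 locus, so that Cre switches on strong expression of Fgf8b in the surface ectoderm of the head. The skin, which holds the cells with active Cre, was peeled off before the vault was taken. The control cranial vault was taken in the same way from embryos labelled wildtype, which lack Cre. By the cross that was described, these carry the CAGF8 allele with its stop cassette intact. The control cranial base was dissected as the cartilage of the skull floor, from control embryos once the brain was out, and served as a reference for cartilage. By the paper's description, the control embryos gave the vault first and then the base. How they were grouped into pools is not stated, so base and control vault pools may share embryos. The fit takes all 9 libraries as independent. Nothing says that the 3 pools of a group differ in litter or day, so the p-values below measure only the spread between pools.

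Blood vessels are lined by endothelial cells. VEGF-A, made by neighboring cells, acts on the endothelial receptor tyrosine kinases VEGFR2 (Kdr) and VEGFR1 (Flt1), the second of which binds the ligand tightly and signals weakly. The angiopoietins act on TIE2 (Tek), with TIE1 as its partner receptor, and endoglin (Eng) is a co-receptor for ligands of the TGF-beta family. Mature cartilage has no vessels, whereas intramembranous bone of the vault forms in a vascularized mesenchyme, and hypertrophic chondrocytes release VEGF-A as vessels enter cartilage. Kdr, Tek and Eng are also expressed in some cells other than endothelium.

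The receptor and co-receptor genes Tek, Kdr and Eng passed the test between the MCAGF8 vault and the base, and Vegfa is the ligand. For these 4 the 250 bases, or slightly fewer, upstream of the start site are shown, 5' to 3' on the strand of the gene, from RefSeq on GRCm38.p6. Windows were found for 8 of the 10 genes, with 9 windows in all because Vegfa has 2, and none for Pecam1 and Cdh5. Capitals mark the letters CAGGAA or CCGGAA (core letters of sites bound by ETS factors, a family that acts on many endothelial genes) or AGATAA (bound by GATA factors), or their reverse complements TTCCTG and TTCCGG. The windows are chr4:94739039-94739288 (Tek, plus strand), chr5:75978459-75978705 (Kdr, minus strand), chr2:32646345-32646594 (Eng, plus strand) and chr17:46032378-46032627 (Vegfa, minus strand).
Tek: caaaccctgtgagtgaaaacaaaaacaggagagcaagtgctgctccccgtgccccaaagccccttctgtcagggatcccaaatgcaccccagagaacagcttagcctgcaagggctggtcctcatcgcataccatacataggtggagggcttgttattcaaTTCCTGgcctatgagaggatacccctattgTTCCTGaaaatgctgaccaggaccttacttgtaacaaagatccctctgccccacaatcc
Kdr: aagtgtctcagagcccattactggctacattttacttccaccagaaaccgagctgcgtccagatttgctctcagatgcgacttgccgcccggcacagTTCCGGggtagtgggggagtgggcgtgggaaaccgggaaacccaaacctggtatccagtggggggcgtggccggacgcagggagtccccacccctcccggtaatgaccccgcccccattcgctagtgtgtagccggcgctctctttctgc
Eng: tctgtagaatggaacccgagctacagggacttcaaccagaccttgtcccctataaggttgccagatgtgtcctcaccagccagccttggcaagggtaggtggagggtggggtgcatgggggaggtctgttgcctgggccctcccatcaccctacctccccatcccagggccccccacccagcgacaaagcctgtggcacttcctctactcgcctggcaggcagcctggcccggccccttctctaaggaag
Vegfa: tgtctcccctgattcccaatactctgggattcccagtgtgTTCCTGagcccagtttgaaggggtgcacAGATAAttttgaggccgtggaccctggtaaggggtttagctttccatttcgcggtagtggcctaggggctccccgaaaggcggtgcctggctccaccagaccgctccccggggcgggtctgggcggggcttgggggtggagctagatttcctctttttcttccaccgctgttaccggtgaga

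CAGGAA, read on both strands, was found in 4 of the 9 windows of the 10 genes (Emcn, Tek, Tie1 and Vegfa) and in 25.7% of all 32851 windows in the table. Of the 250 bases of the Tie1 window only 38 lie upstream of the gene, and those hold no CAGGAA on either strand. CCGGAA was found in 1 of the 9, that of Kdr, against 12% of all windows. AGATAA was found in 1 of the 9, that of Vegfa shown above, against 9.99% of all windows. ACGTG, the core letters of the hypoxia response element, was found in the second Vegfa window only, against 16.6% of all windows, and its capitals are therefore absent above. This second window (chr17:46025164-46025413, minus strand) lies inside the Vegfa gene, which spans 46016993 to 46032369, and not upstream of it. None of these motifs contains another. The Eng window holds none of them, as do those of Flt1 and Cldn5.

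Expression is given as FPKM, fragments scaled for transcript length and library size, which allows levels to be set side by side between genes. Differences are on the log2(FPKM + 1) scale from limma fitted to all 9 libraries and 18714 genes, and genes are named as called where the two-sided p was under 0.05 before and under 0.1 after Benjamini-Hochberg adjustment. The FPKM of a library summed to between 793249 and 1315982, and 16006 to 17281 genes per library had at least 1 FPKM. Read totals are not given, but the value of 1 read, taken from genes of very low FPKM, differed between libraries by 1.32-fold at most, so that relative depth was similar. Control base replicate 2 stood apart from the other base libraries, with a sum of 10380 FPKM over 13 chondrocyte markers against 1014 and 1532 in replicates 1 and 3. Every control vault library, at 2100 to 3035 FPKM over these markers, was above base replicates 1 and 3. Over 10 skeletal muscle markers, base replicates 1 and 3 had sums of 11280 and 4722 FPKM, against 1763 in replicate 2 and 924.5 to 5827 in the control vault. Base replicate 1 also had the lowest share of long transcripts, described with Vegfa below. In bulk tissue fewer endothelial cells and less RNA per endothelial cell cannot be told apart. The 3 comparisons share libraries in pairs, so their values are set side by side and not counted as separate evidence.

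**Figure D1:**
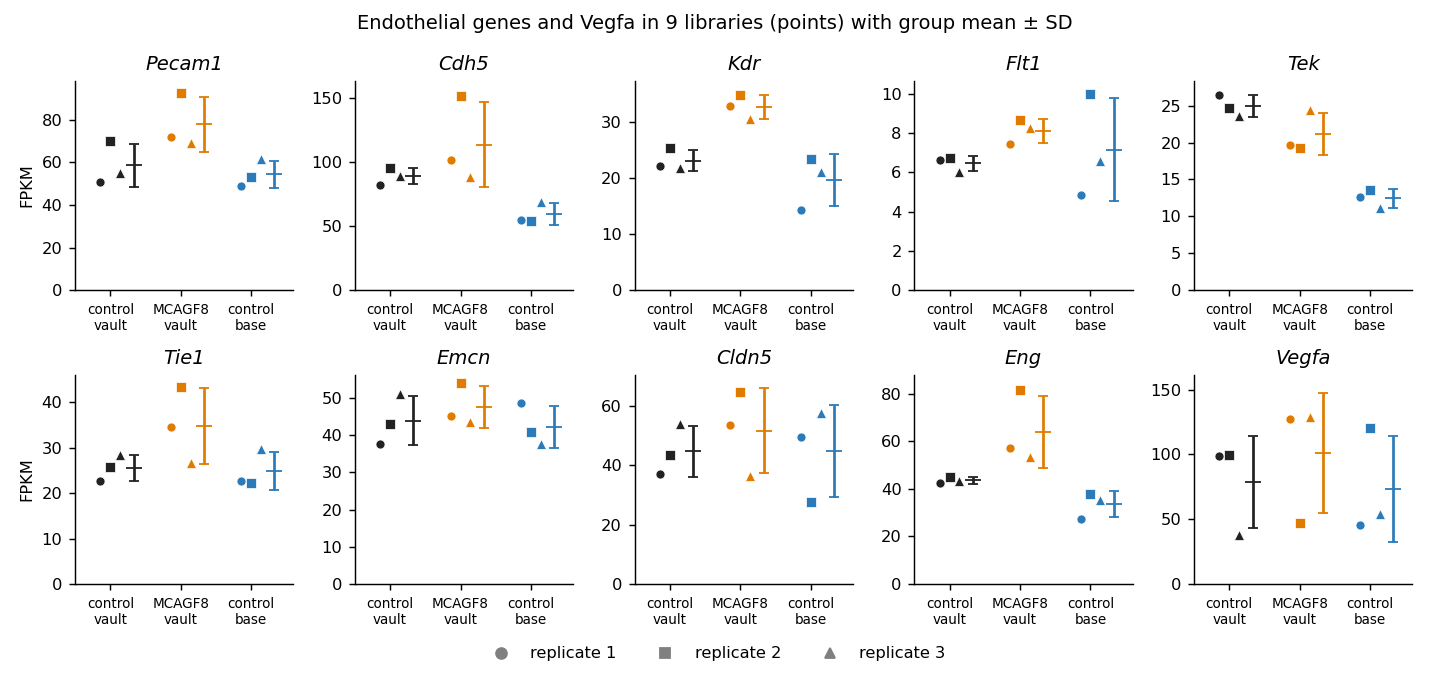
Expression of the 9 endothelial genes and Vegfa in FPKM (vertical axis, from 0) in the control vault, MCAGF8 vault and control base, with 1 point per library, its shape giving the replicate number, and the group mean ± SD beside it. Tek is lowest in all 3 base libraries, Kdr and Eng are highest in all 3 MCAGF8 libraries, and Vegfa splits every group into high and low libraries.

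Between the MCAGF8 and control vaults, 9 of the 10 genes had a higher mean in the MCAGF8 vault and Tek a lower one, and 0 of 10 were called, against 0.604% of all genes tested. Kdr and Eng, 2 of the 10, were at an unadjusted p under 0.05, both higher, as were 2.86% of all genes. The per-gene model without moderation gave the same counts, 0 called and 2 at an unadjusted p under 0.05. In 3 genes (Kdr, Flt1 and Eng) every MCAGF8 library lay above every control vault library, as in 9.90% of all genes tested. The median log2 difference was 0.33 over the 10 genes and -0.01 over all genes.

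Against the base all 10 genes had a higher mean in the MCAGF8 vault, and 4 were called, all higher: Cdh5, Kdr, Tek and Eng. Of all genes tested 8.39% were called in this comparison, 2.98% higher and 5.41% lower in the MCAGF8 vault. In all, 5 of the 10 (Pecam1, Cdh5, Kdr, Tek and Eng) lay above the base in every MCAGF8 library, as in 8.91% of all genes, and the same 5 were at an unadjusted p under 0.05. The median log2 difference was 0.48 over the 10 genes and -0.07 over all genes. Quantile normalization moved that all-gene median to 0.08, the share of calls that were higher in the MCAGF8 vault from 35.5% to 58.7%, and the members called from 4 to 5, with Pecam1 added (adjusted p = 0.0691 by limma, of 0.0691 to 0.373 over its alternatives).

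The control base and control vault differed in 1 of the 10 genes, Tek, which was lower in the base. Of all genes 3.06% were called here, 1.21% lower in the base. The means of 9 of the 10 were lower in the base, the exception being Flt1, and Tek and Cdh5 were at an unadjusted p under 0.05. In 3 genes (Cdh5, Tek and Eng) every base library lay below every control vault library, as in 6.69% of all genes. The median log2 difference was -0.11 over the 10 genes and 0.07 over all genes. Here quantile normalization moved the all-gene median to -0.04 and the share of calls that were higher in the base from 60.6% to 37.7%, and Tek was called under it as well.

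**Figure D2:**
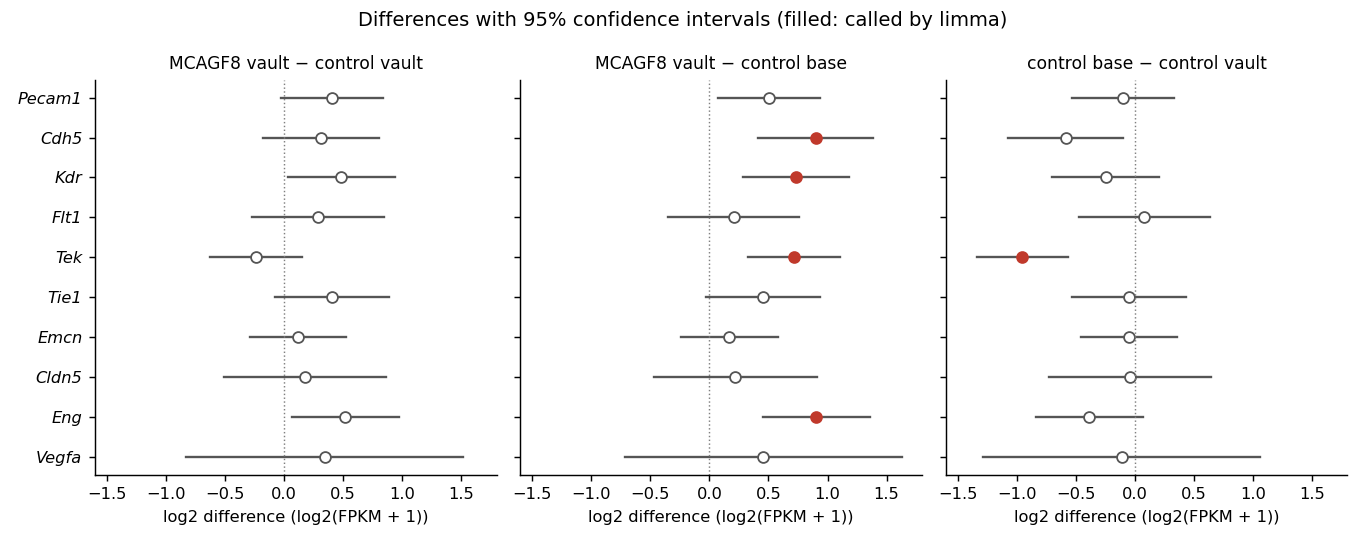
Log2 differences between group means on the log2(FPKM + 1) scale (horizontal axis) for the 10 genes in the 3 comparisons, with 95% confidence intervals from limma and filled points for called genes. No point is filled between the vaults, 4 are filled between the MCAGF8 vault and the base (Cdh5, Kdr, Tek and Eng), and Tek alone is filled between the base and the control vault.

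Among the receptors of VEGF-A, Kdr separated the MCAGF8 vault from both control tissues. Kdr (ENSMUSG00000062960, GRCm38 chromosome 5, 75932827 to 75978458, minus strand), the main signaling receptor, measured 32.8, 34.8 and 30.5 FPKM in the MCAGF8 vault, 22.1, 25.3 and 21.8 in the control vault, and 14.4, 23.4 and 21.1 in the base. Every MCAGF8 library lay above all 6 control libraries, while the 2 control tissues overlapped. The means were 32.7 ± 2.14, 23.1 ± 1.93 and 19.6 ± 4.70 FPKM (SD, n = 3 each). The MCAGF8 mean was 1.42-fold that of the control vault, a log2 difference of 0.49 (standard error 0.20, 95% interval 0.03 to 0.94) that was not called (adjusted p = 0.712, limma). It was 1.67-fold that of the base, a log2 difference of 0.73 (standard error 0.20) that was called (adjusted p = 0.0754, limma), with the highest adjusted p of the 4 calls against the base.

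Flt1 was the least expressed of the 10 genes. Flt1 (ENSMUSG00000029648, chromosome 5, 147561604 to 147726011, minus strand) measured 7.46, 8.68 and 8.24 FPKM in the MCAGF8 vault, 6.65, 6.74 and 6.03 in the control vault, and 4.87, 10.01 and 6.61 in the base. The vault groups did not overlap, and the base libraries spanned both. The log2 difference between the vaults was 0.29 (95% interval -0.27 to 0.84, adjusted p = 0.969, limma), and no comparison of Flt1 was called. FPKM of Flt1 does not separate the membrane receptor from the soluble form that the same gene encodes. Within a library Flt1 stood at 0.228 to 0.270 of Kdr in the MCAGF8 vault, 0.266 to 0.30 in the control vault and 0.313 to 0.427 in the base, where all 3 ratios were above those of the 6 vault libraries.

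The angiopoietin receptor Tek set the 2 vaults apart from the base. Tek (ENSMUSG00000006386, chromosome 4, 94739289 to 94874976, plus strand) measured 26.5, 24.7 and 23.6 FPKM in the control vault, 19.7, 19.3 and 24.4 in the MCAGF8 vault, and 12.6, 13.6 and 11.1 in the base. All 6 vault libraries were above all 3 base libraries, and the vaults overlapped. The control vault mean of 24.9 ± 1.47 FPKM was 2.01-fold the base mean of 12.4 ± 1.25 (SD, n = 3 each), a log2 difference of -0.95 for base minus vault (standard error 0.17, 95% interval -1.34 to -0.56, adjusted p = 0.0334, limma). The MCAGF8 mean of 21.1 ± 2.82 FPKM was 1.70-fold that of the base (log2 difference 0.72, standard error 0.17, adjusted p = 0.0468, limma). Between the vaults Tek was the 1 gene of the 10 with a lower MCAGF8 mean, by a log2 difference of -0.23 with an interval from -0.62 to 0.15 and an adjusted p of 0.969 (limma), which was not called.

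Tie1 (ENSMUSG00000033191, chromosome 4, 118471191 to 118490061, minus strand) measured 34.5, 43.3 and 26.7 FPKM in the MCAGF8 vault, 22.7, 25.8 and 28.4 in the control vault, and 22.6, 22.2 and 29.8 in the base. All 3 groups overlapped. Its log2 difference was 0.41 between the vaults (adjusted p = 0.899), 0.46 against the base (adjusted p = 0.28) and -0.05 between the control tissues (adjusted p = 0.982, all limma), so Tie1 was called in none. The ratio of Tek to Tie1 within a library was 1.17, 0.960 and 0.830 in the control vault, 0.571, 0.446 and 0.913 in the MCAGF8 vault, and 0.558, 0.612 and 0.373 in the base. Every control vault ratio was above every base ratio, and the MCAGF8 vault held values at both levels. The ratios were not tested.

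Among the junction and adhesion genes, Cdh5 was called against the base. Cdh5 (ENSMUSG00000031871, chromosome 8, 104101625 to 104144511, plus strand), which encodes VE-cadherin of the endothelial adherens junction, measured 101, 151 and 88.2 FPKM in the MCAGF8 vault, 82.6, 95.3 and 89.3 in the control vault, and 54.6, 54.1 and 69.1 in the base. Both vaults lay above the base in every library and overlapped each other. The MCAGF8 mean was 1.92-fold that of the base (114 ± 33.4 against 59.2 ± 8.52 FPKM, SD, n = 3 each), and the log2 difference, 0.90 with standard error 0.22, was called (adjusted p = 0.0476, limma). Between the control tissues the log2 difference was -0.59 (95% interval -1.08 to -0.10), which did not pass once adjusted (adjusted p = 0.266, limma), and between the vaults it was 0.31 (adjusted p = 0.969, limma).

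Pecam1 (ENSMUSG00000020717, chromosome 11, 106654217 to 106750628, minus strand), an adhesion molecule of endothelium, platelets and some leukocytes, measured 71.8, 92.8 and 69.2 FPKM in the MCAGF8 vault, 51.0, 69.9 and 55.0 in the control vault, and 48.7, 52.9 and 61.4 in the base. The MCAGF8 libraries were above the base without overlap, and control vault replicate 2 reached into the MCAGF8 range. The log2 difference was 0.51 against the base (95% interval 0.08 to 0.94, adjusted p = 0.183, limma) and 0.41 between the vaults (95% interval -0.02 to 0.84, adjusted p = 0.838, limma), and neither was called. Control base and control vault means of Pecam1 were 54.4 ± 6.48 and 58.6 ± 10 FPKM (SD, n = 3 each), with a log2 difference of -0.10 (adjusted p = 0.942, limma).

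Cldn5 (ENSMUSG00000041378, chromosome 16, 18776847 to 18778262, plus strand), a claudin of endothelial tight junctions, measured 53.6, 64.8 and 36.4 FPKM in the MCAGF8 vault, 37.0, 43.4 and 53.9 in the control vault, and 49.6, 27.7 and 57.5 in the base. The groups overlapped fully, and the lowest value was that of base replicate 2. None of its log2 differences (0.18 between the vaults, 0.22 against the base and -0.04 between the control tissues) was called, with adjusted p of 0.978, 0.751 and 0.992 by limma. Without base replicate 2, Cldn5 was higher in the base than in the MCAGF8 vault, by a log2 difference of -0.09 for MCAGF8 minus base.

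Ratios between these genes are given within libraries. Within a library, Pecam1 stood at 0.889 to 0.978 of Cdh5 in the base, against 0.615 to 0.734 in the control vault and 0.613 to 0.785 in the MCAGF8 vault. Tie1 stood at 0.411 to 0.432 of Cdh5 in the base, against 0.271 to 0.318 and 0.286 to 0.340. For both ratios, which share Cdh5 as the denominator, all 3 base libraries were above all 6 vault libraries, and the vaults overlapped each other. The ratios of Emcn, Cldn5, Flt1, Kdr, Eng and Tek to Cdh5 did not set the base libraries apart from all vault libraries. Emcn, for example, stood at 0.543 to 0.891 of Cdh5 in the base and 0.453 to 0.571 in the control vault. As a share of the sum of the 9 endothelial genes, Cdh5 took 19.8 ± 1.02% in the base, 24.7 ± 0.66% in the control vault and 24.9 ± 2.31% in the MCAGF8 vault (SD, n = 3 each). These ratios and shares are descriptions and were not tested.

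**Figure D3:**
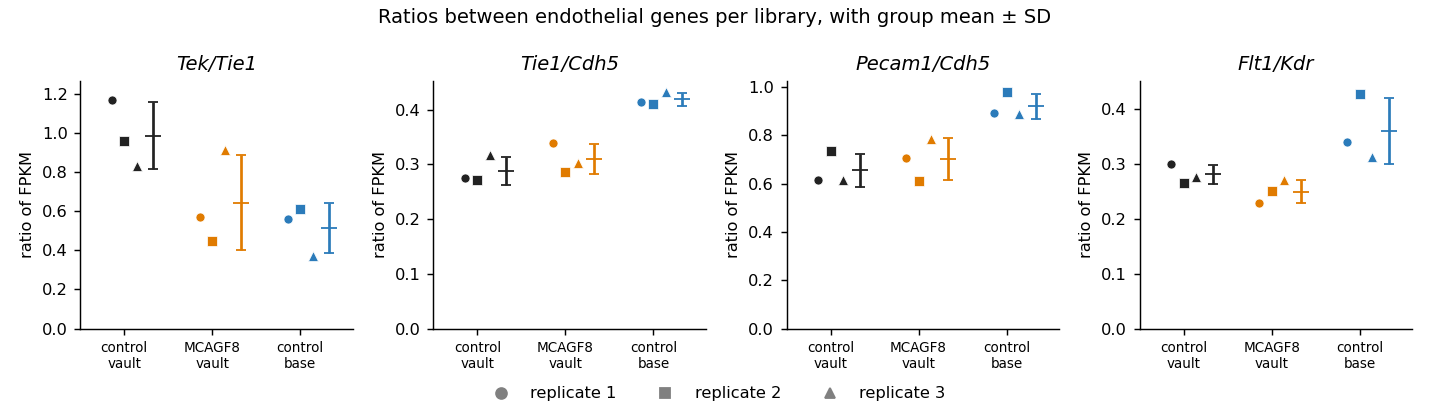
Ratios of FPKM between pairs of endothelial genes within each library (vertical axes, from 0), with 1 point per library, its shape giving the replicate number, and the group mean ± SD beside it. Tie1 and Pecam1 relative to Cdh5 are higher in all 3 base libraries than in any vault library, and Tek relative to Tie1 is higher in all 3 control vault libraries than in any base library.

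Eng gave the largest difference of the 10 genes between the vaults and the smallest adjusted p against the base. Eng (ENSMUSG00000026814, chromosome 2, 32646595 to 32682669, plus strand) measured 57.4, 81.5 and 53.3 FPKM in the MCAGF8 vault, 42.3, 45.1 and 43.4 in the control vault, and 27.4, 37.9 and 35.2 in the base. The 3 groups formed 3 separate ranges, in the order MCAGF8 vault, control vault, base. Against the base the MCAGF8 mean of 64.1 ± 15.2 FPKM was 1.91-fold (base 33.5 ± 5.47, SD, n = 3 each), and the log2 difference, 0.90 with standard error 0.20, was called (adjusted p = 0.0349, limma). Against the control vault (43.6 ± 1.43 FPKM) it was 1.47-fold, a log2 difference of 0.52 (95% interval 0.07 to 0.97), which was not called (adjusted p = 0.645, limma). Base minus control vault was -0.38, also not called (adjusted p = 0.506, limma).

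Emcn (ENSMUSG00000054690, chromosome 3, 137341067 to 137432185, plus strand), a sialomucin found mainly on capillaries and veins and strong in vessels of growing bone, was the flattest of the 10 against the base. It measured 45.1, 54.2 and 43.7 FPKM in the MCAGF8 vault, 37.7, 43.2 and 51.0 in the control vault, and 48.6, 40.8 and 37.5 in the base. The ranges lay on top of each other. Its log2 differences were 0.12 (95% interval -0.29 to 0.53), 0.17 (-0.24 to 0.58) and -0.05 (-0.46 to 0.36), with adjusted p of 0.976, 0.667 and 0.979 by limma.

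The 4 calls against the base and the 1 call between control tissues rested on the spread pooled over 3 groups and on single libraries. With only the libraries of both groups compared, 0 of 10 genes were called in either comparison. Eng lost its call without MCAGF8 replicate 1 or 2 (adjusted p = 0.106 for each, of 0.0175 to 0.123 over 19 alternatives, limma). Cdh5 lost its call without base replicate 1 (adjusted p = 0.107) or MCAGF8 replicate 1 or 2 (0.134 and 0.123, of 0.0102 to 0.146). Tek lost its call against the base without base replicate 3 (adjusted p = 0.103) or MCAGF8 replicate 1 or 3 (0.147 and 0.171, of 0.0243 to 0.174). Kdr kept its call with base replicate 2 left out and with no other single library left out (adjusted p = 0.109 to 0.234, of 0.0223 to 0.234 over its alternatives). Between the control tissues, Tek lost its call without control vault replicate 1, 2 or 3 (adjusted p = 0.146, 0.124 and 0.136, of 0.0170 to 0.146). In every one of these alternatives the direction of the call stayed, and the log2 difference of Tek between base and control vault stayed between -1.05 and -0.88.

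Vegfa differed more within groups than between them. Vegfa (ENSMUSG00000023951, chromosome 17, 46016993 to 46032369, minus strand) measured 127, 47.3 and 129 FPKM in the MCAGF8 vault, 98.8, 99.5 and 38.0 in the control vault, and 45.9, 120.2 and 53.8 in the base. Each group held libraries between 98.8 and 129 FPKM and libraries between 38.0 and 53.8 FPKM, with none in the gap, and the groups overlapped fully. The means were 101 ± 46.6, 78.8 ± 35.3 and 73.3 ± 40.8 FPKM (SD, n = 3 each). The log2 difference was 0.35 between the vaults (95% interval -0.83 to 1.52, adjusted p = 0.976, limma), 0.46 against the base (-0.72 to 1.63, adjusted p = 0.689) and -0.11 between the control tissues (-1.28 to 1.06, adjusted p = 0.984). Differences in Vegfa inside these intervals are not excluded by these libraries. Without control vault replicate 3 the difference between the vaults turned to -0.11, and between the control tissues the sign depended on which library was left out.

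The libraries high in Vegfa were also those with more of their signal in long transcripts and more Malat1, a nuclear noncoding RNA. The slope of log2(FPKM + 1) on log2 exon length over 18568 genes was 0.195 to 0.296 in the 5 libraries with the most Vegfa (control vault 1 and 2, MCAGF8 vault 1 and 3, base 2) and -0.0136 to 0.178 in the other 4. Malat1 measured 51.3 to 171 FPKM in the first 5 and 12.1 to 23.8 in the other 4. The summed FPKM of 81 ribosomal protein genes, which are short, was 58440 to 92580 in the first 5 and 92000 to 170000 in the other 4. With this slope as a covariate, an alternative chosen after the data were seen, the log2 difference of Vegfa was 0.05 between the vaults, -0.11 against the base and 0.15 between the control tissues. Under that covariate the same 4 genes (Cdh5, Kdr, Tek and Eng) were called against the base and Tek between the control tissues.

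**Figure D4:**
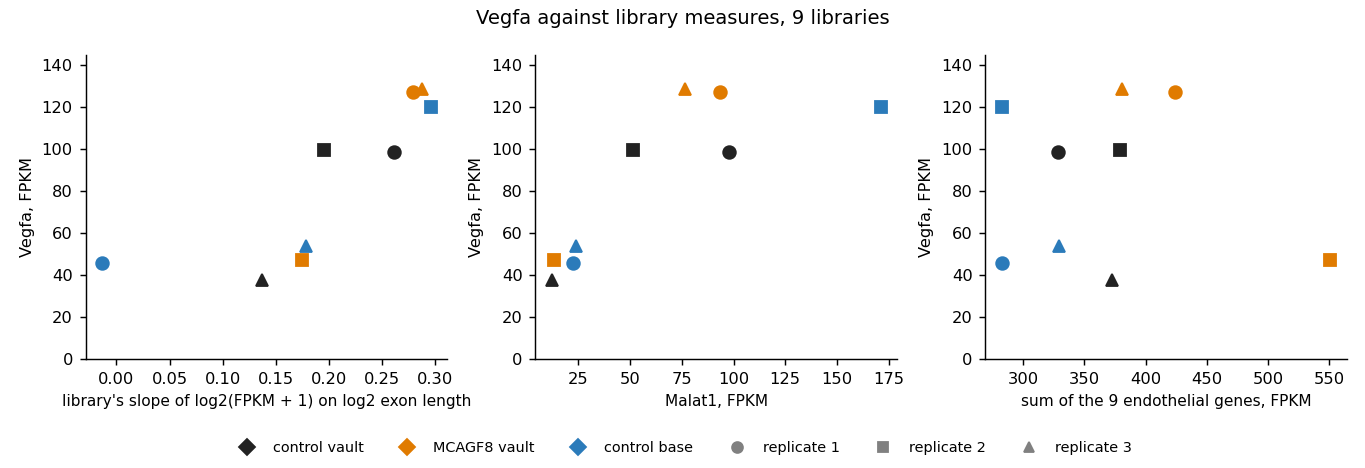
Vegfa in FPKM (vertical axis, from 0) in the 9 libraries against the slope of each library on exon length, Malat1 in FPKM and the summed FPKM of the 9 endothelial genes, with color for the group and shape for the replicate number. The 5 libraries between 98.8 and 129 FPKM of Vegfa have the 5 highest slopes and the 5 highest Malat1 values, and MCAGF8 vault replicate 2 combines the highest endothelial sum with 47.3 FPKM of Vegfa.

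The order of the libraries within a group was shared by most of the endothelial genes in the MCAGF8 vault and not in the control tissues. The sum of the 9 endothelial genes was 424, 551 and 381 FPKM in the MCAGF8 vault, 329, 379 and 372 in the control vault, and 283, 283 and 329 in the base. All MCAGF8 sums were above all others, although replicate 3 was above control vault replicate 2 by less than the spread within either group. MCAGF8 replicate 2 held the highest value of its group in 8 of the 9 endothelial genes, the exception being Tek, in which it was the lowest, and it was also the lowest in Vegfa. MCAGF8 replicate 3 was the lowest of its group in 7 of the 9. In the control vault replicate 2 was the highest in 5 genes and replicate 3 in 3, with replicate 1 the lowest in 6 and replicate 3 in 3. In the base replicates 2 and 3 were each the highest in 4 genes and the lowest in 3 and 2. Without MCAGF8 replicate 2 the log2 difference between the vaults of Cdh5 was 0.09 in place of 0.31, that of Eng 0.34 in place of 0.52, and that of Kdr 0.44 in place of 0.49.

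Other pan-endothelial genes are given by their counts. Of 29 tested, 27 were higher in the MCAGF8 vault than in the control vault and 2 lower, with a median log2 difference of 0.25 (-0.01 over all genes), and 0 were called by limma with 4 at an unadjusted p under 0.05. Against the base 25 were higher and 4 lower, with a median of 0.42 (-0.07 over all genes) and 4 called, all higher: Vwf, Erg, Robo4 and Clec14a. Of all genes 2.98% were called higher in that comparison. In the base 9 were higher and 20 lower than in the control vault, with a median of -0.12 and 0 called, 4 of them at an unadjusted p under 0.05. The counts describe the list and were not tested. Cd34, a sialomucin of endothelium and of blood progenitors, was 1 of the 2 with a lower mean in the MCAGF8 vault than in the control vault, without overlap, by a log2 difference of -0.50 that was not called (adjusted p = 0.860, limma).

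Vwf, the gene of von Willebrand factor, which endothelium stores for clotting, showed the widest spread between groups on that list. It measured 29.1, 30.0 and 22.9 FPKM in the MCAGF8 vault, 14.4, 11.3 and 16.3 in the control vault, and 7.74, 7.82 and 7.94 in the base. The 3 groups did not overlap. The log2 difference was 1.67 against the base (standard error 0.20, adjusted p = 0.00399, limma) and 0.92 between the vaults (standard error 0.20, adjusted p = 0.128, limma), the second of which was not called.

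Erg, an ETS factor of endothelium and of cartilage, measured 68.0, 71.3 and 68.5 FPKM in the MCAGF8 vault, 49.0, 51.6 and 48.2 in the control vault, and 36.6, 48.3 and 28.0 in the base. The MCAGF8 libraries stood above all others. Its log2 difference against the base was 0.90 (adjusted p = 0.0327, limma), and that between the vaults, 0.47, was not called (adjusted p = 0.719). Robo4 and Clec14a, receptors of the endothelial surface, had log2 differences against the base of 0.77 and 0.67 (adjusted p = 0.0620 and 0.0653, limma). Esam and Egfl7, an endothelial adhesion molecule and a secreted endothelial factor, were not called in any comparison, with log2 differences of 0.33 and 0.23 between the vaults.

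**Figure D5:**
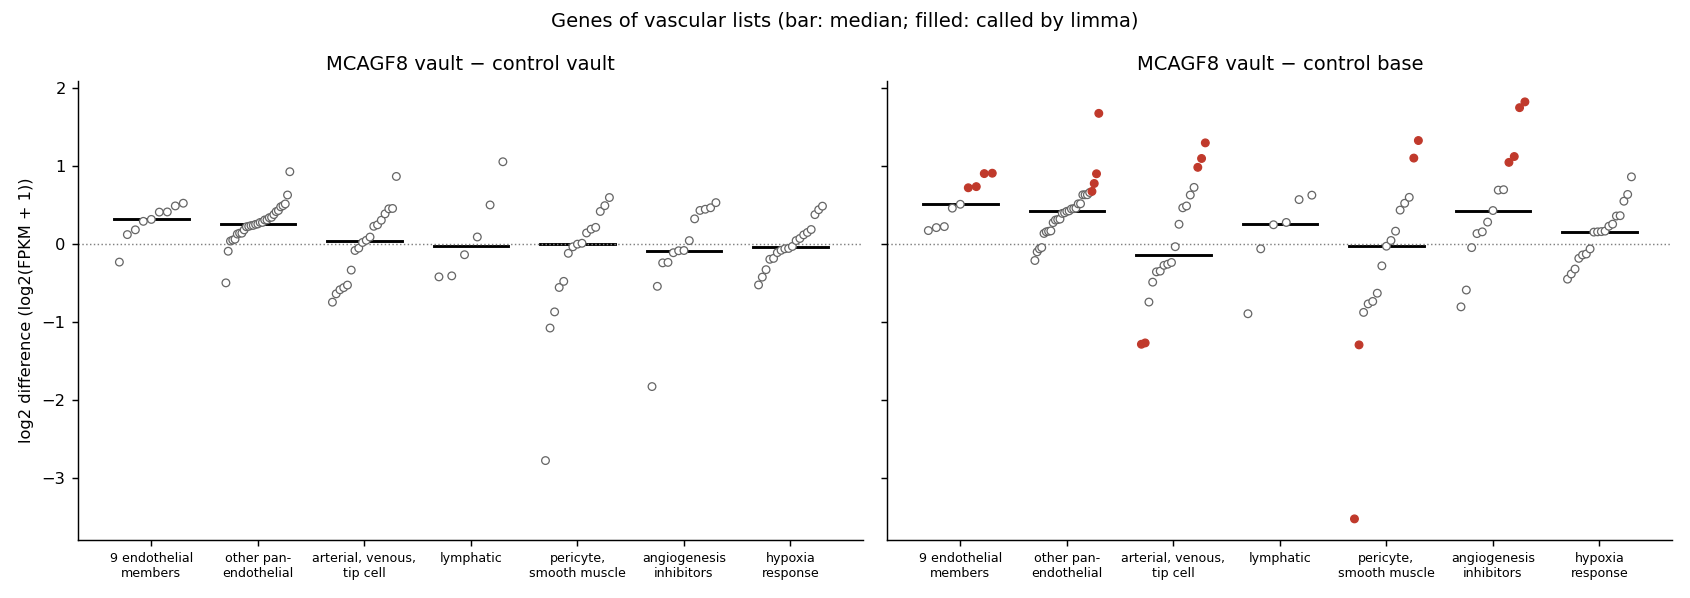
Log2 differences on the log2(FPKM + 1) scale (vertical axis) of each tested gene of 7 vascular lists, between the vaults (left) and between the MCAGF8 vault and the base (right), with bars at list medians and filled points for called genes. Vegfa is left out, no point is filled between the vaults, and the 9 endothelial members and other pan-endothelial genes lie mostly above 0 in both panels.

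The other ligands and receptors of the VEGF, angiopoietin and related pathways numbered 13 tested genes besides the 10. Between the vaults 10 had a higher and 3 a lower MCAGF8 mean, 0 were called by limma and 3 were at an unadjusted p under 0.05. Against the base 11 were higher and 2 lower, and 4 were called, all higher, against 2.98% of all genes: Vegfd, Angpt2, Apln and Nrp2. In the base 3 were higher and 10 lower than in the control vault. Of them 1, Angpt2, was called lower, against 1.21% of all genes.

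Angpt2, the angiopoietin that destabilizes vessels as a context-dependent antagonist of TIE2, measured 27.8, 22.6 and 23.3 FPKM in the MCAGF8 vault, 23.4, 24.9 and 28.3 in the control vault, and 12.3, 6.70 and 9.92 in the base. The vaults overlapped and both were above the base, as Tek was. The log2 difference was 1.29 for MCAGF8 vault minus base (adjusted p = 0.0131), -1.35 for base minus control vault (adjusted p = 0.0232) and -0.06 between the vaults (adjusted p = 0.990, all limma). Vegfd, a ligand of VEGFR3 in the mouse, measured 7.56, 8.77 and 15.2 FPKM in the MCAGF8 vault, 4.75, 5.18 and 4.15 in the control vault, and 2.27, 1.53 and 3.32 in the base. The 3 groups did not overlap, and the log2 difference was 1.75 against the base (adjusted p = 0.0121, limma) and 0.96 between the vaults (adjusted p = 0.390, limma, not called). Apln, a peptide of sprouting endothelial tip cells, and Nrp2, a co-receptor of VEGF ligands, had log2 differences against the base of 1.09 and 0.98 (adjusted p = 0.0381 and 0.0557, limma). Vegfb, a ligand of VEGFR1, was called in no comparison.

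Genes that mark the type of vessel were mixed. Of 18 arterial, venous and tip cell genes, 10 had a higher and 8 a lower mean in the MCAGF8 vault than in the control vault, with a median log2 difference of 0.03, and limma called 0, with 3 at an unadjusted p under 0.05. Against the base 8 were higher and 10 lower, with 3 called higher (Angpt2, Apln and Nrp2) and 2 called lower, against 2.98% and 5.41% of all genes. The 2 that fell were arterial genes, the gap junction gene Gja5 (log2 difference -1.29, adjusted p = 0.0317, limma) and the Notch target Hey1 (-1.27, adjusted p = 0.0274, limma), though Hey1 is expressed in other cells as well. Gja5 measured 8.69, 13.9 and 7.95 FPKM in the MCAGF8 vault, 13.3, 18.9 and 13.6 in the control vault, and 31.5, 18.2 and 29.2 in the base, so the base was above the MCAGF8 vault in every library. Gja4, the other arterial connexin, was not called (log2 difference -0.49 against the base, adjusted p = 0.343, limma). Other arterial genes of the list went both ways against the base. Efnb2 and Dll4 were higher (0.72 and 0.25), and Sema3g and Hey2 lower (-0.36 and -0.04). None of them was called (adjusted p = 0.132, 0.577, 0.504 and 0.972, limma).

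Of 6 lymphatic genes, none was called between the vaults or against the base by limma (1 and 3 at an unadjusted p under 0.05). Between the control tissues 4 of the 6 were higher and 2 lower in the base, with a median log2 difference of 0.20 (0.07 over all genes). Of them 1, Lyve1, which also marks some macrophages, was called lower in the base, against 1.21% of all genes. It measured 20.3, 26.8 and 25.5 FPKM in the control vault and 14.4, 8.84 and 10.7 in the base, a log2 difference of -1.05 (adjusted p = 0.0541, limma). Prox1, the regulator of lymphatic identity, was low in all libraries, between 0.486 and 2.49 FPKM. Of 12 genes of brain barrier endothelium other than Cldn5, 7 were higher and 5 lower between the vaults and 0 were called (0 at an unadjusted p under 0.05). Mfsd2a, a lipid transporter of that endothelium, was called in no comparison, with a log2 difference of 0.49 between the vaults (adjusted p = 0.957, limma). Foxf2, a factor of pericytes and of facial mesenchyme, was higher in the base than in either vault, with 48.0, 20.2 and 46.2 FPKM in the base, 2.35, 1.44 and 2.32 in the control vault, and 2.90, 2.14 and 0.755 in the MCAGF8 vault. The log2 difference of Foxf2 was 3.61 for base minus control vault (adjusted p = 0.00431, limma), and Foxq1, the other gene of that list to pass, differed by 1.93 in the same direction.

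Genes of the cells around vessels showed both directions. Of 15 pericyte and smooth muscle genes, 7 were higher and 8 lower between the vaults, with a median log2 difference of -0.00, 0 called by limma and 5 at an unadjusted p under 0.05. Against the base 7 were higher and 8 lower. There 2 were called higher and 2 lower in the MCAGF8 vault, against 2.98% and 5.41% of all genes. Pdgfrb, a receptor of pericytes and of much other mesenchyme, measured 67.4, 84.0 and 66.9 FPKM in the MCAGF8 vault, 49.0, 42.3 and 52.2 in the control vault, and 25.3, 35.6 and 40.9 in the base. The 3 groups did not overlap, the order being the same as for Eng. It was called against the base (log2 difference 1.10, adjusted p = 0.0178, limma) and not between the vaults (0.59, adjusted p = 0.520, limma). Anpep was also called against the base (1.32, adjusted p = 0.00862, limma). Rgs5, a more specific pericyte gene, was called in neither (-0.77 against the base, adjusted p = 0.118, limma). Des and Myh11, contractile genes, were called lower against the base by -3.52 and -1.30, and Des is also a gene of skeletal muscle, whose markers are described below. Anpep and Myh11 were also called between the control tissues, Anpep lower and Myh11 higher in the base, where 3.06% of all genes were called.

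Of 13 angiogenesis inhibitors, 10 had a higher and 3 a lower mean in the MCAGF8 vault than in the base. Thbs1, Thbs2, Serpinf1 and Sparc, 4 of the 13, were called, all higher, against 2.98% of all genes. Thbs2, a matricellular protein, measured 476, 376 and 369 FPKM in the MCAGF8 vault, 427, 449.7 and 414 in the control vault, and 86.0, 155 and 129 in the base. Both vaults stood above the base without overlap (log2 difference 1.74 for MCAGF8 minus base, adjusted p = 0.00658, limma), and the vaults overlapped. Between the control tissues 4 of the 13 were called, all lower in the base (Tnmd, Thbs2, Serpinf1 and Sparc), against 1.21% of all genes. Between the vaults limma called 0, with 1 at an unadjusted p under 0.05. Cnmd, the chondromodulin gene of avascular cartilage, measured 1641 FPKM in base replicate 2 against 287 and 231 in the other base libraries, and was called in no comparison.

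Of 18 hypoxia response genes other than Vegfa, 8 were higher and 10 lower between the vaults, and their median log2 difference was -0.05. In none of the comparisons did limma call any of them (0 of 18), with 0, 3 and 2 at an unadjusted p under 0.05 between the vaults, against the base and between the control tissues. Slc2a1, the glucose transporter GLUT1, measured 78.2, 97.2 and 73.5 FPKM in the MCAGF8 vault, 52.5, 72.7 and 58.3 in the control vault, and 42.6, 58.6 and 70.8 in the base. The MCAGF8 libraries were above all others, and its log2 difference between the vaults was 0.44 (adjusted p = 0.894, limma). Adm, the adrenomedullin gene, was between 1.18 and 5.77 FPKM in every library.

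Markers of blood cells are given beside the endothelial values. Of 13 erythroid genes 11 were higher in the MCAGF8 vault than in the base, with 3 called higher (Hba-a2, Hba-x and Alas2, against 2.98% of all genes), and their summed FPKM was 10460 to 16450 in the MCAGF8 vault, 12630 to 17880 in the control vault and 5066 to 11110 in the base. Of 12 macrophage and leukocyte genes 11 were higher in the MCAGF8 vault than in the base. Of the 12, 5 were called higher (Csf1r, Adgre1, Cd68, Mrc1 and Cx3cr1), also against 2.98% of all genes. The macrophage and leukocyte sums, 388 to 597, 421 to 525 and 187 to 499 FPKM in the same order, overlapped. None of the genes of either list was at 0 in any library. Between the vaults 8 of the 13 erythroid and 5 of the 12 macrophage genes were higher, and limma called 0 in each, with 0 at an unadjusted p under 0.05. Between the control tissues 11 of the 13 and 11 of the 12 were lower in the base than in the control vault. There 1 erythroid gene (Hba-x) and 3 macrophage genes (Csf1r, Adgre1 and Mrc1) were called lower, against 1.21% of all genes. Of 5 platelet genes tested, 0 were called in any comparison by limma, with 1 at an unadjusted p under 0.05, between the control tissues, and 1 was higher and 4 lower between the vaults and 2 higher and 3 lower against the base. The part of these cells in the endothelial values was not tested.

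Genes of cartilage, bone, muscle, skin and brain are set beside the endothelial values in the same way. All 13 chondrocyte genes had a higher mean in the MCAGF8 vault than in the control vault, with a median log2 difference of 0.80, and limma called 0, with 1, Sox9, at an unadjusted p under 0.05. The spread was shared with the base, where replicate 2 stood apart in these markers. Col2a1 and Col9a3 differed by 1.12 and 0.96 (standard errors 0.81 and 0.74), without overlap between the vaults, as in 9.90% of all genes. The paper reports both as increased. Against the base 12 of the 13 were higher, with a median of 0.68 and 0 called (0 at an unadjusted p under 0.05). The chondrocyte sums were 2900 to 5312 FPKM in the MCAGF8 vault, 2100 to 3035 in the control vault and 1014 to 10380 in the base. Of 8 genes of hypertrophic chondrocytes, of which Ibsp, Spp1 and Runx2 are also osteoblast genes, 7 had a lower mean in the MCAGF8 vault than in the control vault, and 7 a lower mean than in the base. Ibsp and Spp1 were called lower between the vaults, and Col10a1, Ihh, Mmp13, Ibsp and Spp1 against the base, where 5.41% of all genes were called lower. The sums of the 8 were 156 to 262 FPKM in the MCAGF8 vault, 1134 to 2586 in the control vault and 539 to 1122 in the base. In the control vault the mean sum of 2080 FPKM was mostly Ibsp and Spp1, with means of 1231 and 660.9. Col10a1 measured 0.945 to 2.05 FPKM in the control vault, 0.346 to 0.438 in the MCAGF8 vault and 74.2 to 658 in the base. Between the vaults, where 0.604% of all genes were called, 7 of 10 skeletal muscle genes were called, all lower in the MCAGF8 vault. The muscle sums were 54.1 to 212 FPKM there, 925 to 5827 in the control vault and 1763 to 11280 in the base. In the same comparison 7 of 12 osteoblast genes were called, all lower, against that share. The osteoblast sums were 2264 to 2970 in the MCAGF8 vault, 4083 to 7322 in the control vault and 1033 to 2444 in the base. Of 10 epidermis genes 3 were called, all higher (Krt5, Pkp1 and Grhl3), with sums of 390 to 1002 in the MCAGF8 vault, 13.6 to 103 in the control vault and 61.3 to 675 in the base. Of 7 neural genes tested, 1 was called lower between the vaults and 4 lower against the base, with sums of 55.9 to 88.8 in the MCAGF8 vault, 45.2 to 184 in the control vault and 269.9 to 723 in the base. Neurod1, Neurod6, Eomes and Pax6 of the neural list and Dsg3 of the epidermis list were at 0 in at least 1 library. Of 7 meninges genes tested, 1 was higher and 6 lower between the vaults with 0 called by limma (0 at an unadjusted p under 0.05), and 1, Col25a1, was called lower against the base. The part of these tissues in the endothelial values was not tested.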

How the data were processed

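The authors sequenced stranded mRNA libraries of pooled tissue with single-end reads, aligned them with gSNAP and estimated expression with Cufflinks. The deposited table holds FPKM, 1 row per Ensembl gene identifier and 1 column per library. The build, annotation release and program versions were, in the sources used here, not given. The authors compared groups by ANOVA in R.

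Of 43611 rows, 63 repeated an identifier and were summed with their first row, 9 genes with the placeholder 999999999 (17 cells) were left out, and 42375 identifiers were matched to symbols. FPKM were not rescaled and were tested as log2(FPKM + 1), so log2 differences understate the change of genes with low FPKM. Genes whose mean FPKM was 0.5 or more (18714) entered limma 3.58.1 under R 4.3.3 (lmFit, contrasts.fit, eBayes with trend), 1 mean per group over 9 libraries and no replicate block. The thresholds follow the stricter marking used in the study. Fold ratios are ratios of mean FPKM. Simulated data with known changes served to check the fit. Python 3.11.15, pandas 2.3.3, numpy 2.4.6 and matplotlib 3.10.9 handled tables and plots. Gene coordinates are from GENCODE M21 on GRCm38, and promoter windows from RefSeq on GRCm38.p6.

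The reads behind each value are unknown, so no counting interval is given and the SD of 3 pools describes the precision. A pool averages 3 tissue samples, which hides the spread between embryos. The genes and lists were chosen with earlier results of these data known. By rule, the text names the 10 genes, the first 2 tested genes of each list, up to 4 called genes per list and comparison with the largest differences and at least 5 FPKM in the higher group, and the 8 genes most like the endothelial mean and Vegfa. For the lists of blood cells and other tissues the text departs from this rule and gives counts and sums, so that Hba-a1, Ptprc, Pf4, Itga2b, Sp7, Dmp1, Ifitm5, Phospho1, Col1a1, Sox5, Krt14, Dcx, Fabp7, Sox2, Stmn2, Foxc1, Foxd1, Mylpf, Myl1, Tnnc2 and Acta1 are not described there. Cd34, Mmp13, Foxq1, Myh11, Grhl3, Cx3cr1, Malat1, Col2a1, Col9a3, Efnb2, Dll4, Sema3g, Hey2 and the markers at 0 are named outside this rule, after their values were seen. The alternatives were a pseudocount of 0.1, no filter, a filter at 5 FPKM, quantile normalization, scaling to a common median, only the libraries of the groups compared, a block for the replicate number, no moderation, an adjusted p under 0.05, and each library left out in turn. A covariate for exon length was added after the data were seen.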

Additional observations from a re-analysis of the deposited data

How the results depend on the processing

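Between the vaults, 0 of the 10 genes were called under all 19 alternatives. The 113 calls over all genes became 191 with a pseudocount of 0.1, 66 without a filter, 71 at a mean FPKM of at least 5, 174 with only the vault libraries, 35 at an adjusted p under 0.05, and 0 without moderation (1223 at an unadjusted p under 0.05). With 1 library left out they ran from 11 (control vault replicate 1 or 3) to 273 (base replicate 2). Against the base, the 4 calls among the 10 became 0 with only the libraries of both groups, 2 without moderation, and 0 (MCAGF8 replicate 1) to 4 with 1 library left out. The 1571 calls over all genes became 834 at a mean of at least 5 FPKM, 875 with only both groups, 869 without moderation, 941 at an adjusted p under 0.05, and 587 (without MCAGF8 replicate 1) to 4561 (without base replicate 2). For base against control vault, the 1 call (Tek) became 0 with only both groups, and 0 to 1 with 1 library left out. The 573 calls over all genes became 291 at a mean of at least 5 FPKM, 108 with only both groups, 257 without moderation, 255 at an adjusted p under 0.05, 1384 with the exon length covariate, and 130 (without control vault replicate 3) to 1335 (without base replicate 2). Fewer samples or genes enter some of these fits, and for the rest the cause was not tested.

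Whether the replicate number pairs the samples is not stated. The deviations of same-numbered libraries from their group means correlated at 0.37, -0.07 and -0.43 between the vaults, -0.27, -0.55 and -0.29 against the base, and -0.41, 0.00 and 0.24 between the control tissues. With 3 libraries per group these values cannot decide whether pools were paired. With the number as a block, calls among the 10 were 0, 1 (Eng) and 0, and calls over all genes 19, 918 and 234, in the same order of comparisons.

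Some uncalled differences changed sign. With 1 library left out, Vegfa ran from -0.11 (control vault replicate 3) to 0.82 between the vaults and Cldn5 from -0.0020 (MCAGF8 replicate 2) to 0.41. Against the base, Flt1 ran from -0.0060 (base replicate 1) to 0.45 and Cldn5 from -0.088 (base replicate 2) to 0.45. For base minus control vault, Pecam1 ran from -0.19 to 0.031, Flt1 from -0.16 to 0.29, Tie1 from -0.18 to 0.026, Emcn from -0.15 to 0.059, Cldn5 from -0.25 to 0.27 and Vegfa from -0.56 to 0.16. There Flt1 also turned to -0.12 after quantile normalization and -0.013 after rescaling to a common median, and the exon length covariate turned Vegfa to 0.15 there and to -0.11 against the base. Pools of 3 samples and unknown depth limit all values, and small shifts in these genes were not detectable.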

Other observations

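Among 12873 other genes with a mean of at least 5 FPKM, the 8 whose log2(FPKM + 1) over the 9 libraries ran closest to the mean of the 9 endothelial genes were Hspa12b (Pearson's r 0.985), Tgfb3 (0.976), Rhobtb1 (0.975), Angptl2 (0.974), Lrp8os2 (0.973), Prkd2 (0.969), Hoga1 (0.968) and Plpp3 (0.968). The points are the 9 libraries, which share their group and their depth with the endothelial values, and these correlations were picked as the highest of many. Hspa12b, an endothelial chaperone gene, measured 48.2 ± 7.99 FPKM in the MCAGF8 vault, 36.9 ± 2.84 in the control vault and 26.3 ± 3.03 in the base (SD, n = 3 each). Angptl2, a secreted angiopoietin-like protein, measured 118 ± 25.9, 90.9 ± 9.71 and 54.9 ± 5.97 FPKM in the same order, and Tgfb3, a ligand that endoglin binds, 109 ± 26.4, 89.1 ± 4.53 and 73.1 ± 7.03.

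A different set ran with Vegfa: Slc25a37 (Pearson's r 0.989), Man2c1 (0.985), Mtmr1 (0.981), Zfp57 (0.980), Dnhd1 (0.978), Zcchc4 (0.978), Ankrd16 (0.976) and Gm20661 (0.974). None of the 8 is among those nearest to the endothelial mean. Man2c1, an alpha-mannosidase gene, measured 137, 73.8 and 138 FPKM in the MCAGF8 vault, 103, 107 and 59.4 in the control vault, and 64.0, 127 and 80.9 in the base, with the same 5 libraries high as for Vegfa. Zfp57, a zinc finger gene of imprinting control, measured 120.1, 51.6 and 139 FPKM in the MCAGF8 vault, 87.7, 92.8 and 41.3 in the control vault, and 44.7, 130.7 and 65.1 in the base, again with those 5 libraries high. These libraries are also the ones with the 5 highest exon length slopes, and the part of that slope in the likeness was not tested.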
